A study of Mus musculus with 30 samples.

Results

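The genes described here encode the protein components of the cytosolic ribosome. They were taken by symbol: protein-coding genes named Rps or Rpl with a number, together with Rpsa, Rplp0, Rplp1 and Rplp2, without pseudogenes and without the Rps6k kinases. Of the 55573 gene rows in the table, 83 fitted those names, and 79 of them had at least 100 counts in at least 5 libraries: 32 of the small subunit, 44 of the large subunit and the 3 stalk proteins. All 79 also passed the filter on low counts that the test across all genes used. The gene just inside the count limit was Rps10, with 94 to 265 counts per library and at least 100 in 29 of the 30. Outside it were Rpl39l (1 to 45 counts), Rpl24 (0 to 5), Rpl3l (0 to 1) and Rpl10l (no count in any library). Rpl3l, Rpl10l and Rpl39l are paralogs of Rpl3, Rpl10 and Rpl39, whereas Rpl24 is the sole gene of its name.

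The cells were naive CD8+ T cells of C57BL/6 mice aged 8 weeks, pooled from spleen and lymph nodes by magnetic sorting and stimulated for 3 days on plates that carried antibodies against CD3 and CD28, both at 5 µg/ml, in serum-free X-VIVO 20 medium. This stimulation was common to all 6 groups. The mice were wild type (WT) or Furin KO. Cells of each genotype were grown without a further cytokine, with IL12 (10 ng/ml) or with TGFB1 (0.5 ng/ml), which gives 6 groups of 5 libraries. Furin is a protease that cleaves many precursor proteins, including that of TGFB1. The labels used here give neither the deleted piece of Furin nor how the deletion was driven. Each genotype had libraries of 4 females and 1 male per medium, and the 5 numbers of a genotype recur in all 3 media: 62, 67, 71, 72 and 75 for WT and 63, 68, 70, 73 and 74 for KO. The labels do not say whether a number stands for an animal, so the p-values below measure the spread between libraries, which may be partly technical.

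Ribosomal protein genes are among the most strongly expressed genes of a growing cell, and resting T cells raise ribosome production when their receptor is engaged. Their mRNAs start with a tract of pyrimidines, and through this tract the growth-promoting kinase complex mTORC1 controls their translation. Each ribosome takes 1 copy of nearly every component, so the genes are usually expressed in step. A handful of them have a closely related paralog that can take their place.

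Library totals ran from 7306151 to 15502443 counts. T cell markers were present throughout: the summed level of Cd3e, Cd3d, Cd3g, Cd2 and Cd5 was 1210 to 2262 CPM (counts scaled to a common library size) over all libraries. CD8 markers, Cd8a and Cd8b1 together, stood at 588 to 1989 CPM. The CD4 T cell markers Cd4 and Zbtb7b summed to 9.81 to 26.7 CPM, with Cd4 at most 2.37 CPM and Zbtb7b up to 25 CPM. The markers of NK cells, dendritic cells and red cells or platelets summed to at most 1.58 CPM in any library, those of monocytes, macrophages and neutrophils to at most 5.3 CPM, and those of B cells to at most 18.6 CPM, nearly all of it Cd79b. Those of stroma summed to 9.88 to 87.5 CPM, with Pecam1 up to 81.1 CPM, Pdpn up to 31.9 CPM and Col1a1 at most 0.626 CPM. The ranges of Furin itself overlapped between the genotypes in every medium. Without cytokine Furin stood at 28.8 to 38.5 CPM in WT and 31.5 to 33.9 CPM in KO. With TGFB1 the ranges were 73.9 to 93.2 CPM in WT and 66 to 90.2 CPM in KO. With IL12 they were 161 to 533 CPM in WT and 120 to 464 CPM in KO. No test of this gene is given here. The gene-level count of Furin, without knowledge of the deleted piece, does not check the genotype labels. No pair of libraries within a group was a repeat of the same counts.

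A stretch around the annotated start of 10 of the genes is shown first, because a pyrimidine tract at the start is the feature that this family is known for. The sequences come from the RefSeq promoter table of GRCm38.p6. Each runs 5′ to 3′ on the gene's own strand over 20 bases before and 20 bases from the start. Capitals mark every run that opens with a C and goes on with at least 5 further bases that are each C or T. Rps6 and Rplp0 were chosen as standard members, Rps7 and Rps10 for the largest called fall and rise, Rpl35 and Rpl13a for a large fall with IL12 and a large rise with TGFB1. Rps27, its paralog Rps27l, Rpl22l1 and Rpl7l1 were chosen after their values were seen.
Rps6 (chr4:86857348-86857387, minus strand): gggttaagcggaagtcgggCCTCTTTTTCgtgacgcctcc
Rplp0 (chr5:115559447-115559486, plus strand): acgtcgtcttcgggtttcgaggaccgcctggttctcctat
Rpl35 (chr2:39005112-39005151, minus strand): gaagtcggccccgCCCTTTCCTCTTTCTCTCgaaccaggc
Rpl13a (chr7:45128726-45128765, minus strand): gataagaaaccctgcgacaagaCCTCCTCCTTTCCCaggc
Rps7 (chr12:28635934-28635973, minus strand): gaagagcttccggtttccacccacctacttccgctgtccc
Rps10 (chr17:27635225-27635264, minus strand): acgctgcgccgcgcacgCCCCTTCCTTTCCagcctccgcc
Rps27 (chr3:90213629-90213668, minus strand): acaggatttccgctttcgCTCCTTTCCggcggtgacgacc
Rps27l (chr9:66946066-66946105, plus strand): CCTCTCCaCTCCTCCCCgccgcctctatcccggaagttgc
Rpl22l1 (chr3:28805488-28805527, plus strand): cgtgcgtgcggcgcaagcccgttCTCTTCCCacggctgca
Rpl7l1 (chr17:46782637-46782676, minus strand): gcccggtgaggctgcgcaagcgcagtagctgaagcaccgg

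Such a run lay on the gene's own strand in 40 of the 59 member genes that the promoter table holds, 67.8%, against 8859 of 27025 genes of the whole table, 32.8%. On the opposite strand it lay in 16.9% of the member genes and in 35.7% of all genes. Genes of ribosome biogenesis, which build the ribosome but are not part of it, had the run in 17 of 60 cases, 28.3%, on their own strand. Rps7, Rplp0 and Rpl7l1 had no such run in these 40 bases, which says only that these letters are not in this window of the annotated start. The windows with a run included Rps10 and Rps27l, which are described below as genes that did not follow the rest. A run counted wherever it lay in the 40 bases. In several of the genes counted every run lay before the annotated start and so outside the annotated mRNA. Rps27l, Rpl5, Rpl4, Rpl6, Rpl13, Rps15 and Rps25 are examples, and not the only ones. How many genes had a run at the start itself is not given here.

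Per annotated transcript length, the 3 stalk proteins were among the 5 highest members, a ranking that depends on these lengths. The stalk is the flexible arm of the large subunit that recruits elongation factors. Rplp1 had the highest mean level over the 30 libraries, 6757 CPM per kilobase of transcript, and was followed by Rps12 with 3955, Rps14 with 3924, Rplp0 with 3675 and Rplp2 with 3581 CPM per kilobase. The 3 lowest were Rps10 with 27.1 CPM per kilobase, Rpl7l1 with 91.6 and Rps15a with 206. The value for Rps15a rests on an annotated transcript of 5130 bases, far longer than its coding part, and is therefore too low as a level per length. The same holds for Rps20, with an annotated transcript of 3706 bases and 357 coding bases. Rps20 had 639137 counts over all libraries, against 628354 for Rps12, so its place outside the 5 highest rests on that length.

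Rpl13a, Rpl24 and Rps10 share most of their coding bases with another gene model. In the GENCODE vM21 annotation, 90.3% of the coding bases of Rpl13a lie in exons of Gm45713, 83.4% of those of Rpl24 in exons of Gm28037 and 80.1% of those of Rps10 in exons of RPS10-NUDT3, each on the same strand. The 3 partner models had 0 counts in all 30 libraries. Rpl19 shared 13.6% of its coding bases with a microRNA model. How reads on shared bases were counted is not given in the sources used here, so the levels of Rps10 and Rpl13a, and changes in them, are uncertain. Rpl13a stood at 371 CPM on average and Rps10 at 17.5 CPM. Coding bases on the opposite strand of another gene's exons were found for 5 members, among them Rpl23a with 55.3%, Rpl22l1 with 28.6% and Rpl35 with 28.5%. The kit marks strand, but the strand setting of the counting is not given.

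Together the 79 genes took up about 1 count in 10, and their share moved with the medium. Without cytokine the share was 9.95%, 10.2%, 10.6%, 10.3% and 9.36% in WT libraries 62, 67, 71, 72 and 75, and 9.97%, 10%, 9.74%, 10% and 9.63% in KO libraries 63, 68, 70, 73 and 74. With TGFB1 it was 10.8%, 11.8%, 11.6%, 11.2% and 11.2% in WT and 11.3%, 10.3%, 10.7%, 11.2% and 10.1% in KO. In both genotypes every TGFB1 library lay above every library without cytokine. With IL12 the KO libraries held 8.34%, 8.48%, 8.74%, 7.64% and 8.56%, all below every KO library without cytokine. The WT libraries with IL12 held 8.57%, 8.98%, 9.35%, 11.1% and 11.6%, so that libraries 62, 67 and 71 lay below all WT libraries without cytokine, and libraries 72 and 75 above all of them. The counting error of these shares was at most 0.05 percentage points from one bound of the 95% exact binomial interval to the other. This covers counting error alone.

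**Figure D1:**
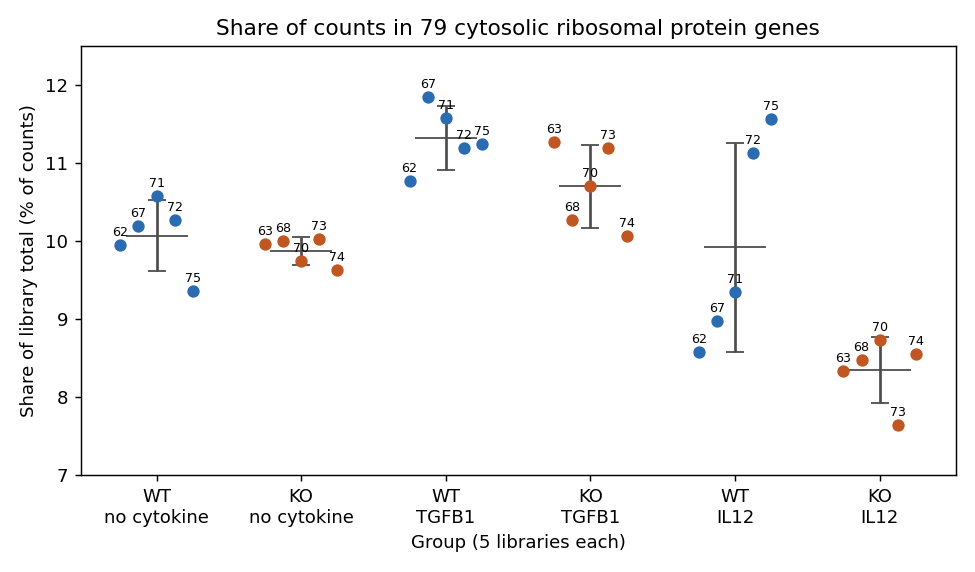
Share of the library total in the 79 ribosomal protein genes (y axis, % of counts) for the 6 groups (x axis), with 1 point per library labelled with its number and the mean ± SD of the 5 libraries as a bar. KO libraries with IL12 lie between 7.64% and 8.74%, and WT libraries 72 and 75 with IL12 lie at 11.1% and 11.6%, apart from the other 3 of their group.

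As group means the share was 10.1% ± 0.46 (SD, n = 5) in WT and 9.87% ± 0.18 in KO without cytokine, 11.3% ± 0.41 and 10.7% ± 0.54 with TGFB1, and 9.92% ± 1.34 and 8.35% ± 0.42 with IL12. The mean of the 3 WT libraries 62, 67 and 71 with IL12 was 8.97% ± 0.39. The small and the large subunit moved alike: with IL12, the KO share was 3.66% ± 0.17 for the small subunit and 4.69% ± 0.25 for the large subunit with the stalk, against 4.31% ± 0.064 and 5.56% ± 0.11 in KO without cytokine. The share is a part of all counts, so it does not give the amount of ribosomal protein mRNA per cell. In such bulk samples fewer cells of a type and less RNA per cell cannot be told apart.

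Because ribosomal protein mRNAs are short, the relation between gene length and level was examined in each library among the tested genes that are not members. For each gene the deviation of its log2 CPM from its mean over the 30 libraries was set against the log2 of its transcript length. Spearman's rho across these genes, which are not independent replicates, was −0.324 in WT library 72 with IL12 and −0.401 in WT library 75 with IL12. It lay between −0.129 and 0.234 in the other 28 libraries. In the bin of the 1164 shortest genes, with a median transcript of 708 bases, the median deviation was 0.22 and 0.31 in these libraries on the log2 scale, and from −0.17 to 0.08 in the others. The 79 members had median deviations of 0.22 in WT 72 and 0.32 in WT 75, where the trend of the other genes at the members' lengths was 0.20 and 0.28. In the KO libraries with IL12, by contrast, the members' median deviations were −0.30, −0.27, −0.21, −0.40 and −0.28, where the trend of the other genes at the same lengths was −0.08, −0.02, −0.01, −0.14 and −0.01.

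**Figure D2:**
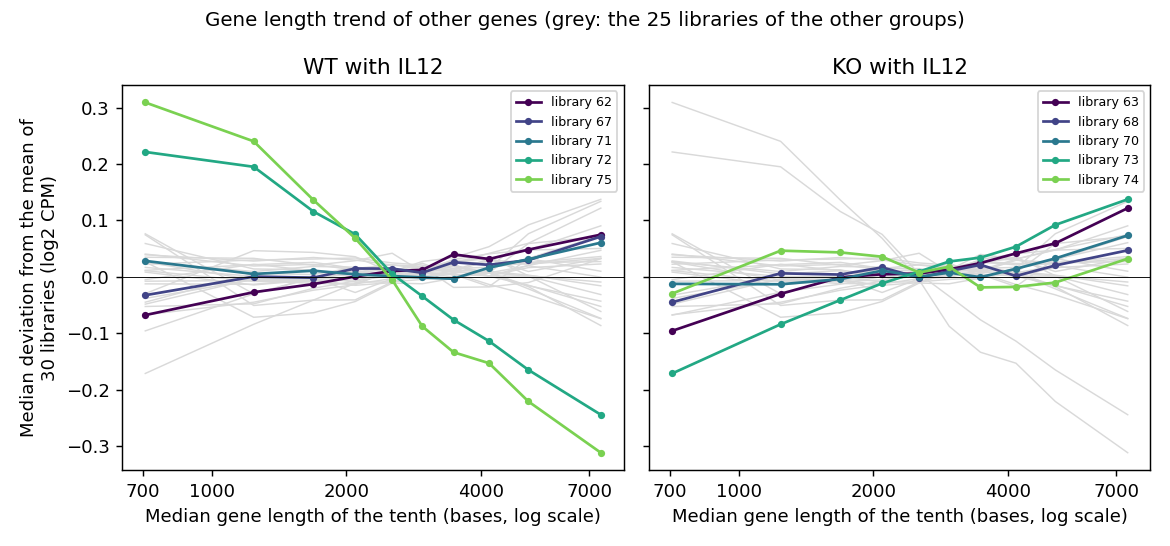
Median deviation from the mean of the 30 libraries (y axis, log2 CPM) of genes that are not ribosomal protein genes, in 10 bins of transcript length (x axis, bases, log scale), with 1 coloured line per IL12 library of WT (left) and KO (right) and grey lines for the other groups' libraries. Lines of WT libraries 72 and 75 fall from 0.22 and 0.31 among the shortest genes to −0.24 and −0.31 among the longest, and those of the other IL12 libraries stay closer to zero.

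With that trend subtracted, the members' median deviation was 0.02 in WT 72 and 0.06 in WT 75 with IL12, −0.18, −0.14 and −0.07 in WT 62, 67 and 71 with IL12, and −0.22, −0.24, −0.20, −0.29 and −0.25 in the 5 KO libraries with IL12. All 5 KO values remained below those of WT 62, 67 and 71. Counts and named members in comparisons that use WT libraries 72 and 75 with IL12 are given with and without them below. These libraries also held the highest shares of counts in members within their group. Leaving them out therefore lowers the members' WT level with IL12 by construction.

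**Figure D3:**
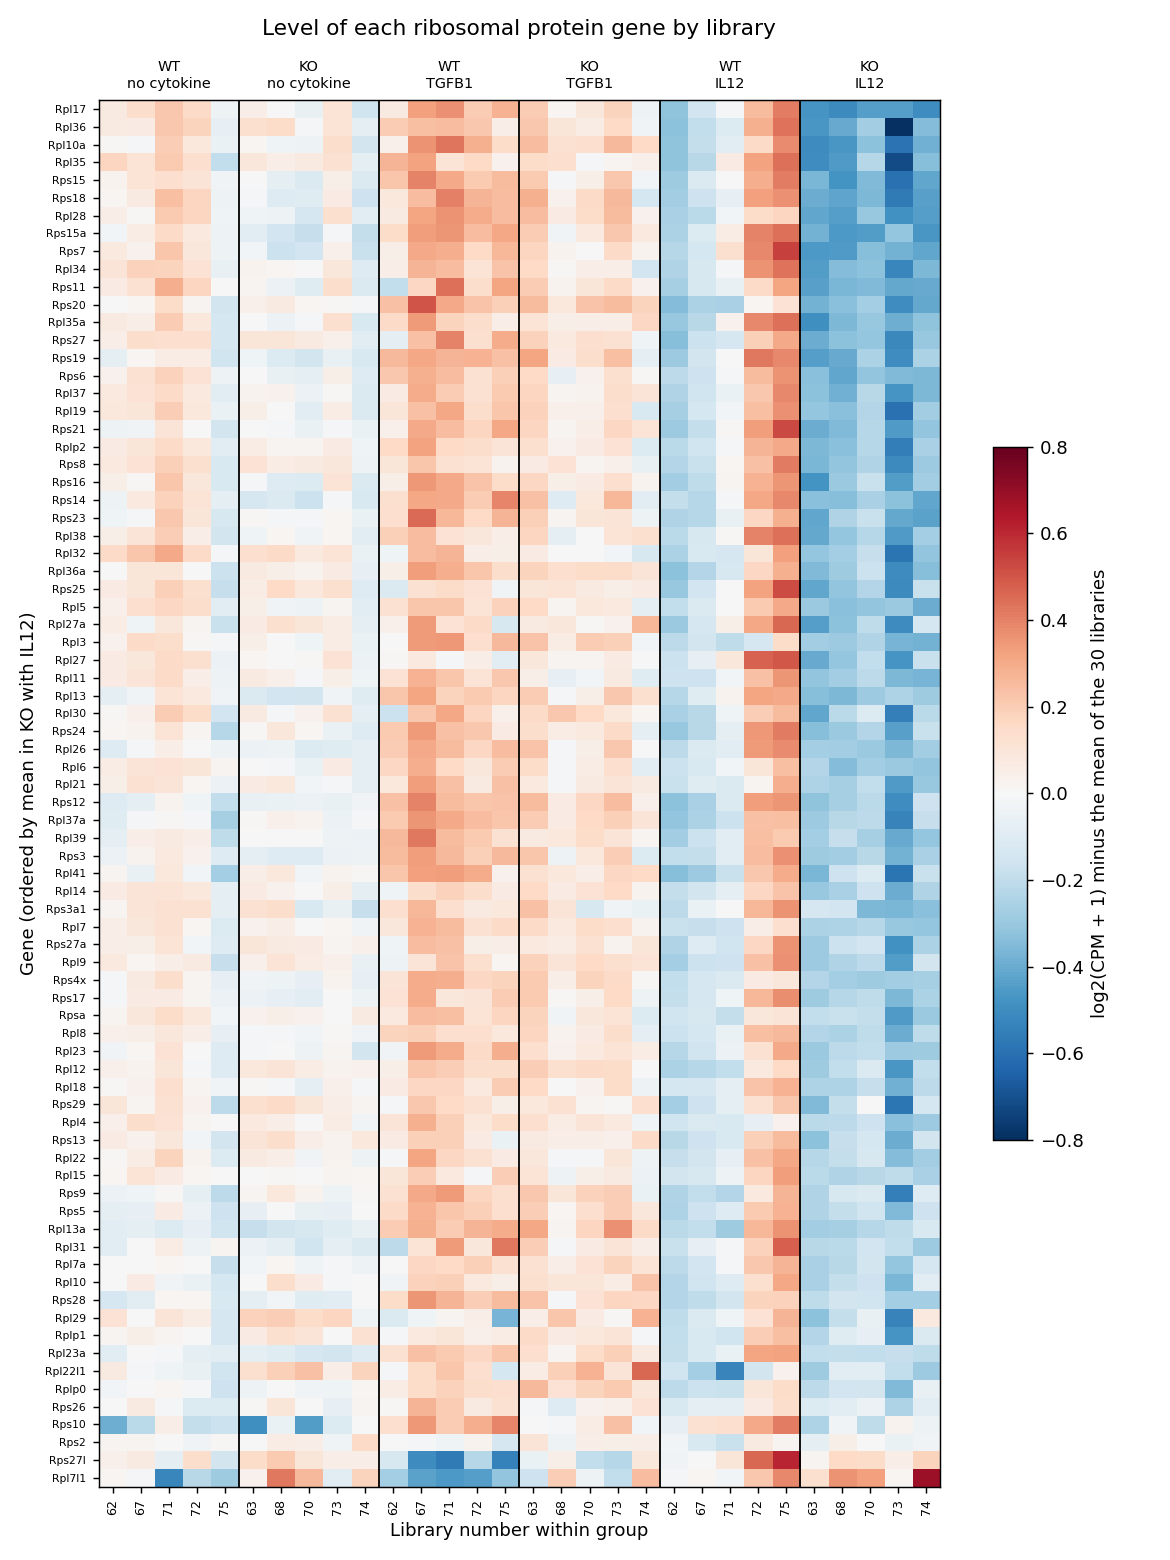
Level of 78 of the 79 genes (rows, ordered by their mean in KO with IL12) in each of the 30 libraries (columns, grouped and numbered), as log2(CPM + 1) minus the gene's mean over the 30 libraries. Nearly all rows are blue in the 5 KO libraries with IL12 and red in WT libraries 72 and 75 with IL12, whereas the bottom rows, Rps10, Rps2, Rps27l and Rpl7l1, are not blue throughout the KO libraries with IL12.

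IL12 is a cytokine that promotes effector functions of CD8+ T cells. In KO cells most of the family was lower with it. Compared with KO cells without cytokine, 57 of the 79 members fell and none rose, while 5.74% of the 11718 genes tested were called lower and 8.49% higher (edgeR quasi-likelihood test with Benjamini-Hochberg adjustment over all genes, called at an adjusted p below 0.05). The median log2 fold change of the members was −0.30 against −0.00026 over all genes tested. Of the 79, 77 had a negative value, none was higher at an unadjusted p below 0.05, and DESeq2 called 58 lower and none higher. Without KO library 73 with IL12 the count was 37. Both subunits took part, with 19 of 32 small subunit genes and 38 of 47 genes of the large subunit and stalk called lower.

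Rpl36, a small protein of the large subunit, fell most. It stood at 439, 446, 399, 435 and 384 CPM in KO libraries 63, 68, 70, 73 and 74 without cytokine and at 291, 304, 332, 228 and 317 CPM in the same numbers with IL12. The groups did not overlap. Its log2 fold change was −0.51 ± 0.11 (SE), with an adjusted p of 0.00146 in edgeR's quasi-likelihood test.

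Rpl35 and Rpl17, which sit near the exit of the tunnel through which the new protein leaves, were next. Rpl35 stood at 466, 454, 460, 475 and 415 CPM without cytokine and at 309, 319, 374, 266 and 345 CPM with IL12, again without overlap. Its log2 fold change was −0.49 ± 0.11 and that of Rpl17 −0.46 ± 0.09 (edgeR adjusted p 0.00233 and 0.000879). Rpl10a, a protein of the mobile stalk on the opposite side of the large subunit, changed by −0.44 ± 0.09 (edgeR adjusted p 0.00178).

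Rps6, the small subunit protein that S6 kinases phosphorylate, stood at 970, 929, 920, 1001 and 903 CPM in the KO libraries without cytokine and at 769, 727, 777, 759 and 756 CPM with IL12. All 5 libraries with IL12 lay below all 5 without it, and their own spread was small. The log2 fold change was −0.32 ± 0.08 (edgeR adjusted p 0.00545). Of 22 members that were chosen for description in every comparison because of what they are known for, 17 fell here. They include Rpl5 (−0.31 ± 0.07) and Rpl11 (−0.33 ± 0.07), which carry the ribosomal 5S RNA and bind the p53 regulator Mdm2 when ribosome assembly is disturbed. Rpl3, at the peptidyl transferase centre, changed by −0.32 ± 0.07, Rpsa by −0.30 ± 0.06 and the X-linked Rps4x by −0.23 ± 0.06, each called lower.

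The other small proteins of that choice also fell with IL12 in KO cells: Rps27 by 0.42, Rps29 by 0.33, Rpl38 by 0.31, Rpl41 by 0.30 and Rpl39 by 0.27 on the log2 scale. Rpl10, one of the last proteins to join the large subunit, fell by 0.25. Among the stalk proteins, Rplp2 fell by 0.37 and Rplp1 by 0.27, whereas Rplp0 had a log2 fold change of −0.16 ± 0.06 and was not called (edgeR adjusted p 0.0801). Also not called were Rps19 (−0.27 ± 0.10), Rps14 (−0.22 ± 0.09), Rpl26 (−0.22 ± 0.08) and Rps27l (−0.00086 ± 0.10), with edgeR adjusted p values of 0.0568, 0.108, 0.0677 and 0.997.

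The fall in KO cells remained with the length trend removed: 59 members were then called lower, at a background of 7.18% of all genes, with a median of −0.23. For Rpl36 the value moved to −0.35, for Rpl17 to −0.42 and for Rps29 from −0.33 to −0.17. The members fell beside other measured differences between these groups. The summed CD8 markers lay at 588 to 880 CPM in KO with IL12 and 883 to 974 CPM in KO without cytokine. The share of mitochondrial transcripts lay at 0.895% to 2.1% and 0.656% to 1.34%. Their part in the result was not tested. With the length trend removed Rpl22l1 and Rpl38 were no longer called (the highest adjusted p over their alternatives was 0.0543 and 0.115), and without KO library 73 Rpl10, Rpl22, Rpl39, Rpl41 and Rplp1 were not called either (edgeR adjusted p 0.094, 0.0906, 0.0651, 0.151 and 0.0655).

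In WT cells the same question has an answer that turns on libraries 72 and 75. With all 5 libraries, 1 member rose and 1 fell with IL12, at a background of 10.5% of genes called higher and 8.3% called lower, and the median log2 fold change of the members was 0.007. The gene that rose was Rps10, 0.39 ± 0.11 (edgeR adjusted p 0.0131), and the gene that fell was Rpl4, −0.15 ± 0.05 (edgeR adjusted p 0.0324). Rpl4 lines the wall of the exit tunnel, and its call was lost under 9 of 20 alternatives (highest adjusted p 0.166). Without WT libraries 72 and 75, 19 members were called lower and none higher, at a background of 2.13% of 11921 genes called lower, and the median was −0.19. Libraries 72 and 75 held the highest shares of counts in members within their group, so leaving them out lowers the members' values by construction. The 19 calls are therefore no separate support for a fall in WT. The largest negative values among the 19 were Rpl32 with −0.34 ± 0.08, Rpl36 with −0.31 ± 0.09 and Rps20 with −0.30 ± 0.07 (edgeR adjusted p 0.0107, 0.0353 and 0.00609). Rps10 then had a value of 0.25 ± 0.12 and was no longer called, and Rpl4 had −0.20 ± 0.05 and was called (edgeR adjusted p 0.227 and 0.0146).

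Rps6 shows how far the WT libraries with IL12 lay from each other. It stood at 837, 866 and 963 CPM in libraries 62, 67 and 71 and at 1157 and 1243 CPM in libraries 72 and 75, against 995, 1053, 1103, 1052 and 944 CPM in WT libraries 62, 67, 71, 72 and 75 without cytokine. The first 3 lay below or inside the range of the group without cytokine, and the other 2 above it. For this gene IL12 in WT gave −0.02 ± 0.08 with all libraries and −0.22 ± 0.06 without 72 and 75 (edgeR adjusted p 0.872 and 0.0272).

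Between the genotypes with IL12, 58 of the 79 members were lower in KO and none was higher, with 4.01% of all genes called lower and 2.76% called higher. The median of the members was −0.30, against −0.00044 for all genes. The KO libraries in this comparison are those of the IL12 comparison within KO, so that the values of both come partly from the same samples. Without WT libraries 72 and 75, no member was called, and 8 genes of the 11921 tested were (0.0671%), in either direction. The median was then −0.13, 71 of the 79 values were negative and 37 members had an unadjusted p below 0.05 in edgeR. A fit of these 2 groups alone, with all 5 WT libraries, likewise called none of the members, with 63 at an unadjusted p below 0.05. DESeq2 on all 30 libraries called 62. Without WT library 72 alone 26 members were called, and without WT library 75 alone 24. The share of all genes called is not given here for DESeq2, the fit of the 2 groups or these last fits. Nor is the share of all genes at an unadjusted p below 0.05. Most members moved in step, so their values are not independent. With the length trend removed, 35 members were called lower, at a background of 2.47%. The summed CD8 markers lay at 588 to 880 CPM in KO with IL12 and 846 to 1058 CPM in WT with IL12, and their part in the result was not tested.

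Rps7, which is needed for processing of the small subunit's RNA, had the largest difference. It stood at 685, 730, 879, 1050 and 1172 CPM in WT libraries 62, 67, 71, 72 and 75 and at 585, 587, 634, 619 and 602 CPM in KO libraries 63, 68, 70, 73 and 74. Every KO library lay below every WT library, including 62, 67 and 71. Its log2 fold change was −0.58 ± 0.10 (edgeR adjusted p 0.00226) with all libraries and −0.33 ± 0.08 (adjusted p 0.0812) without WT 72 and 75.

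Rps15a, Rpl17 and Rpl35 followed with −0.54 ± 0.09, −0.53 ± 0.09 and −0.53 ± 0.11 (edgeR adjusted p 0.00226, 0.00234 and 0.00573). Without WT 72 and 75, Rps15a had −0.31 ± 0.07, Rpl17 −0.30 ± 0.07 and Rpl35 −0.28 ± 0.10, none of them called (edgeR adjusted p 0.0812, 0.0893 and 0.207). Of the 22 members described in every comparison, 14 were lower in KO with all libraries, among them Rps19 with −0.47 ± 0.10 and Rps14 with −0.41 ± 0.09, both of which underlie inherited or acquired anemias when they are lost in humans. Without WT 72 and 75 Rps19 had −0.22 ± 0.07 and Rps14 −0.19 ± 0.08, and neither was called (edgeR adjusted p 0.215 and 0.321).

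**Figure D4:**
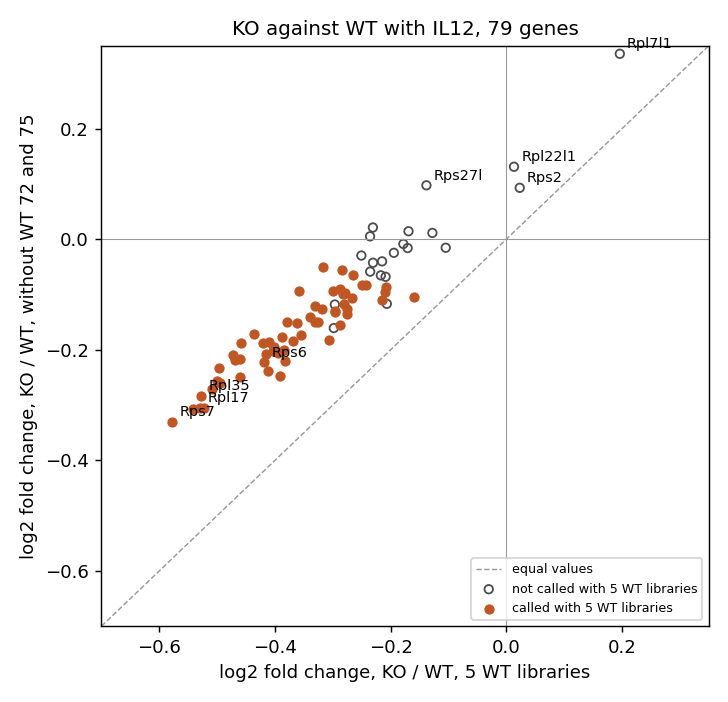
Log2 fold change of KO against WT with IL12 for the 79 genes, with all 5 WT libraries (x axis) and without WT libraries 72 and 75 (y axis). Filled points were called with 5 WT libraries, and none of them was called without the 2 libraries. All points lie above the dashed line of equal values, and 71 stay below zero on the y axis.

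The difference between the genotypes in the response to IL12 was tested as an interaction. edgeR called no gene at all (0% of 11718), and no member. All 79 members had a negative value with a median of −0.28, and 59 had an unadjusted p below 0.05. Most members moved in step, so these are not 79 independent observations. The share of all genes at that unadjusted level is not given here. DESeq2 called none either and gave 61 members at an unadjusted p below 0.05. Without WT libraries 72 and 75 the median was −0.10 and 3 members had an unadjusted p below 0.05. The IL12 response of the family was thus not shown to differ between the genotypes.

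TGFB1 restrains the growth of T cells. With it the members' medians were positive, and smaller in size than those of IL12 in KO. In WT cells 23 members rose and 1 fell against no cytokine, while 19.2% of all genes were called higher and 18.6% lower. Of the 79 values, 72 were positive and the median was 0.14, against 0.016 over all genes tested. Without WT library 75 without cytokine 14 members were called. In KO cells 7 members rose and none fell, at a background of 13.5% called higher and 11% called lower, a share above that of the members, and the median was 0.09. The KO count was 3 without library 63 or 70 of the group without cytokine or without library 63 or 73 with TGFB1, and 4 without library 68 without cytokine or 70 with TGFB1. The summed CD8 markers lay at 1330 to 1989 CPM in WT with TGFB1 and 1022 to 1182 CPM in WT without cytokine, and their part in the result was not tested. Rpl13a, Rpl23a, Rpl13 and Rplp0 were among the 7 members that rose in KO. All 7 also rose in WT, so they made up 100% of the KO calls and 30.4% of the 23 WT calls.

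Rpl13a, known for a second role in silencing inflammatory mRNAs, stood at 346, 347, 339, 350 and 329 CPM in the WT libraries 62, 67, 71, 72 and 75 without cytokine and at 423, 446, 423, 443 and 450 CPM with TGFB1. In the KO libraries 63, 68, 70, 73 and 74 it stood at 323, 331, 335, 343 and 353 CPM without cytokine and at 455, 373, 414, 473 and 408 CPM with TGFB1. In both genotypes the groups were fully apart. Its log2 fold change was 0.35 ± 0.09 in WT and 0.33 ± 0.09 in KO (edgeR adjusted p 0.00271 and 0.00616), with the limit on shared coding bases given above.

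Rps10 had the largest rise in WT. It stood at 12.9, 14.7, 17.9, 15 and 15.2 CPM without cytokine and at 19, 22.2, 20, 21.3 and 22.9 CPM with TGFB1, without overlap, and its log2 fold change was 0.48 ± 0.11 (edgeR adjusted p 0.0012). In KO it was 0.28 ± 0.11 and not called (edgeR adjusted p 0.0631). Rps12, one of the most abundant members per length, rose by 0.34 ± 0.10 in WT (edgeR adjusted p 0.00594).

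Rplp0, the base of the stalk, rose in both genotypes. It stood at 4880, 4944, 5028, 4923 and 4417 CPM in the WT libraries without cytokine and at 5169, 5498, 5650, 5480 and 5446 CPM with TGFB1, a log2 fold change of 0.17 ± 0.06. In KO it stood at 4827, 4979, 4861, 4843 and 5018 CPM without cytokine and at 5944, 5371, 5629, 5732 and 5277 CPM with TGFB1, a change of 0.19 ± 0.06 (edgeR adjusted p 0.0325 and 0.0283). The Rplp0 call was lost under 4 of 18 alternatives in WT and 7 of 18 in KO (highest edgeR adjusted p 0.183 and 0.13, without the low-count filter). Rps6 had positive values too, but was called in neither genotype.

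With the length trend removed, the TGFB1 comparisons had more calls: 39 members were called higher in WT, at a background of 20.2%, and 25 in KO, at a background of 14.1%. The interaction called no member, at a background of 3.3% of all genes, and no member had an unadjusted p below 0.05 in edgeR. DESeq2 also called none and gave none at that level. The median of the interaction was −0.045.

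**Figure D5:**
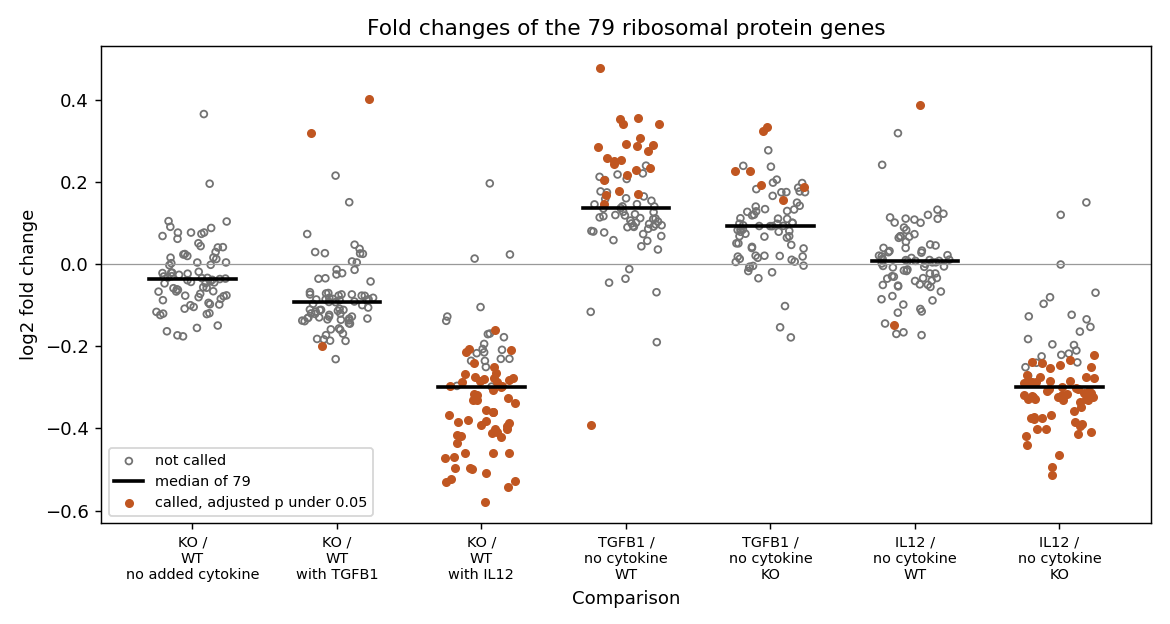
Log2 fold changes (y axis) of the 79 genes in the 7 comparisons between pairs of groups (x axis), with 1 point per gene, filled where edgeR called it, and a bar at the median. The medians lie at −0.30 for KO against WT with IL12 and for IL12 in KO, at 0.14 and 0.09 for TGFB1 in WT and KO, and within 0.1 of zero elsewhere.

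In the other 2 media few members were called between the genotypes. Without cytokine edgeR called no member between KO and WT (DESeq2 also none), at a background of 2.1% of all genes called in either direction. The median of the members was −0.035, and a fit of these groups alone called 3. Rpl7l1 (0.37 ± 0.12) and Rpl22l1 (0.20 ± 0.09) were the 2 members with an unadjusted p below 0.05, with edgeR adjusted p values of 0.0989 and 0.21. With TGFB1, 2 members were higher and 1 was lower in KO, at a background of 18.3% called higher and 17.3% called lower, so the share of members called was below the background. Of the 79 values with TGFB1, 66 were negative and the median was −0.09, and 11 members were called with the length trend removed, 5 higher and 6 lower. Without WT library 67, 71 or 75 with TGFB1, 1 member was called, without KO library 74 none (edgeR), and without WT library 62 or KO library 73, 6 and 5. The member that was lower was Rpl11, with −0.20 ± 0.07 (edgeR adjusted p 0.0339). It stood at 1198, 1342, 1288, 1193 and 1282 CPM in WT with TGFB1 and at 1143, 1056, 1090, 1162 and 1035 CPM in KO, all below all WT libraries, and its call was lost under 7 of 18 alternatives (highest adjusted p 0.105).

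The 2 members that were higher in KO with TGFB1 were paralogs of other ribosomal proteins. Rpl7l1 is related to Rpl7, lies in the nucleolus and takes part in ribosome biogenesis. It stood at 146, 131, 128, 129 and 141 CPM in WT libraries 62, 67, 71, 72 and 75 with TGFB1 and at 156, 202, 171, 153 and 209 CPM in KO libraries 63, 68, 70, 73 and 74. All KO values lay above all WT values, and the log2 fold change was 0.40 ± 0.12 (edgeR adjusted p 0.0108). Its values for KO against WT in the other media, 0.37 without cytokine and 0.20 with IL12, were not called (edgeR adjusted p 0.0989 and 0.317), nor was the value of 0.34 ± 0.13 with IL12 without WT 72 and 75 (adjusted p 0.29). Without KO library 74 with TGFB1 the adjusted p was 0.0578 for Rpl7l1 and 0.0728 for Rps27l.

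Rps27l, a paralog of Rps27 that p53 induces, was lowest in WT with TGFB1. It stood at 304, 311, 281, 327 and 267 CPM in WT without cytokine and at 271, 209, 200, 253 and 203 CPM with TGFB1, and the groups overlapped only through library 62 with TGFB1 (271 CPM) and library 75 without cytokine (267 CPM). The log2 fold change was −0.39 ± 0.10 (edgeR adjusted p 0.00379), while that of Rps27 was 0.14 ± 0.09 and not called (adjusted p 0.262). In KO, Rps27l stood at 285, 305, 258, 253 and 315 CPM with TGFB1, which was higher than in WT by 0.32 ± 0.10 (edgeR adjusted p 0.0169). The difference between the genotypes in the TGFB1 response of Rps27l was 0.21 ± 0.14 and was not called (edgeR adjusted p 0.381).

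Rpl22 and Rpl22l1 are a further pair of paralogs, of which Rpl22 is needed for the development of T cells with the alpha-beta receptor. Rpl22 averaged 816 CPM and Rpl22l1 223 CPM over all libraries, which is 398 and 404 CPM per kilobase of transcript. These values per length rest on annotated transcripts of 2048 bases for Rpl22, with 384 coding bases, and 552 bases for Rpl22l1, with 433. That they are close therefore depends on the annotated lengths. Both genes fell with IL12 in KO, Rpl22 by 0.25 and Rpl22l1 by 0.35 on the log2 scale. Between KO and WT with IL12, Rpl22 had −0.28 ± 0.08 and was called lower, whereas Rpl22l1 had 0.01 ± 0.09 (edgeR adjusted p 0.0309 and 0.946). Without WT 72 and 75, Rpl22 had −0.10 ± 0.07 and Rpl22l1 0.13 ± 0.09 in that comparison, neither called (edgeR adjusted p 0.561 and 0.563).

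Most members moved in step across the 30 libraries. The correlation of a member's log2 CPM with the mean of the other 78 was above 0.9 for 53 members and above 0.79 for 73. These are descriptions over libraries that share 6 group means, 1 scaling and the length trend. The closest were Rpl37 with r = 0.981 and Rpl36a with r = 0.972. The 6 below were Rpl29 with 0.56, Rpl22l1 with 0.497, Rps10 with 0.469, Rps2 with 0.245, Rps27l with −0.209 and Rpl7l1 with −0.43.

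By the spread of group means on the log2 scale, Rpl7l1 (SD 0.25 over the 6 groups), Rpl10a (0.25) and Rpl17 (0.25) varied most. Rps2, Rps26 and Rplp1 varied least, with SDs of 0.039, 0.082 and 0.11. Rps2, a core protein at the mRNA entry of the small subunit, averaged 2087, 2151, 2036, 2142, 2017 and 2050 CPM in WT and KO without cytokine, WT and KO with TGFB1, and WT and KO with IL12. It was called in no comparison, and its log2 fold change with IL12 in KO was −0.07 ± 0.05 (edgeR adjusted p 0.384).

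The non-member genes whose log2 CPM followed the mean of the members most closely over the 30 libraries were Fau with r = 0.966, Eif3k with 0.965, Eif3h with 0.955, Naca with 0.951 and Rack1 with 0.942. Fau and Rack1 are components of the ribosome with other symbols. Fau fell with IL12 in KO by 0.36 ± 0.10, and Rack1 rose with TGFB1 by 0.23 ± 0.07 in WT and by 0.22 ± 0.07 in KO, all called by edgeR (adjusted p 0.0121, 0.00971 and 0.0227).

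The genes that build ribosomes are given beside those that make up the ribosome, in lists chosen for this family. The list counts below are read against the shares of all genes called: 19.2% higher and 18.6% lower for TGFB1 in WT, 13.5% and 11% for TGFB1 in KO, 18.3% and 17.3% for KO against WT with TGFB1, and 8.49% and 5.74% for IL12 in KO. Of 67 ribosome biogenesis genes, 57 fell and 1 rose with TGFB1 in WT cells, with a median of −0.51, in the comparison in which 23 members rose. Gnl3 (−0.78 ± 0.19) and Rrp1b (−0.75 ± 0.15), 2 nucleolar proteins, fell most, and Taf1d was the one that rose (0.27 ± 0.09), each called by edgeR (adjusted p 0.00231, 0.000429 and 0.0234). In KO, 12 of the 67 fell with TGFB1 and none rose, with a median of −0.22. Between the genotypes with TGFB1, 57 were higher and 1 lower in KO, with a median of 0.48. Noc4l was higher by 0.83 ± 0.14 and Polr1b, a subunit of the polymerase that transcribes ribosomal RNA, by 0.80 ± 0.17 (edgeR adjusted p 0.000247 and 0.00114), and Ubtf was the one that was lower (−0.21 ± 0.07, adjusted p 0.0173). The interaction for TGFB1 called none of the 67, at a background of 3.3% of all genes, and had a median of 0.26. The TGFB1 response of this list was thus not shown to differ between the genotypes. Without cytokine edgeR called none of the 67 between KO and WT, but 65 values were positive, with a median of 0.18. With IL12 in KO, where 57 ribosomal protein genes fell, 1 of the 67 fell, Utp14a with −0.27 ± 0.06 (edgeR adjusted p 0.00235), none rose, and the median was 0.009.

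Other parts of the translation machinery were mixed. A list of 38 genes for translation initiation also held the repressors Eif4ebp1 and Eif4ebp2 and the poly(A)-binding Pabpc1. Of these 38, 4 rose, a share below the 19.2% of all genes, and 15 fell with TGFB1 in WT, against 18.6%. Eif4a2 (0.31 ± 0.07) and Eif3f (0.26 ± 0.05) rose, and Eif4ebp1 (−0.84 ± 0.19), which blocks the cap-binding factor, and Eif2b3 (−0.61 ± 0.15) fell (edgeR adjusted p 0.0015, 0.000176, 0.00101 and 0.00314). With IL12 in KO 5 fell and none rose, against 5.74% and 8.49% of all genes, among them Eif3k with −0.34 ± 0.07 and Eif3m with −0.24 ± 0.06. A further list held 24 other transcripts known for a pyrimidine tract at their start, among them the non-coding Gas5, Snhg1 and Snhg12. Of these 24, 8 fell and none rose with IL12 in KO, at the same background, led by Eef1a1 (−0.43 ± 0.09) and Naca (−0.37 ± 0.08). With TGFB1 in WT 11 rose and 1 fell, led by Vim (1.34 ± 0.13) and Pfdn5 (0.95 ± 0.21). Eif3k, Eif3m, Eef1a1, Naca, Vim and Pfdn5 were each called by edgeR (adjusted p 0.00122, 0.00995, 0.00154, 0.00106, 1.15e-08 and 0.000854).

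A list of 10 genes for translation elongation also held the release factors Etf1 and Gspt1 and the kinase Eef2k. Of these 10, 2 fell with IL12 in KO, Eef1a1 and Eef1b2 (−0.35 ± 0.07), against 5.74% of all genes. Eef1a1 is also counted above among the transcripts with a pyrimidine tract. That list shares genes with the other lists, so the counts do not come from separate sets. Of 77 tested genes for mitochondrial ribosomal proteins, which form a separate ribosome in the mitochondrion, 5 rose and 26 fell with TGFB1 in WT, with a median of −0.15, against 19.2% and 18.6% of all genes, so that fewer rose than in the background. With IL12 in KO 2 of them fell, a share below the 5.74% of all genes. Of 22 regulators of ribosome synthesis, 3 rose, a share below the 19.2% of all genes, and 6 fell with TGFB1 in WT, against 18.6%. Myc, which drives ribosome production, was lower by 1.06 ± 0.19 on the log2 scale and Mxd1, an antagonist of Myc, rose by 1.17 ± 0.29 (edgeR adjusted p 0.000152 and 0.00269). With IL12 in KO, 2 of the 22 rose, Mdm2 (0.53 ± 0.11) and Rictor (0.43 ± 0.13), and none fell (edgeR adjusted p 0.00226 and 0.0218), a share near the 8.49% of all genes called higher. Of 7 tested mitochondrial transcripts, 3 rose with IL12 in KO, mt-Nd4 by 0.96 ± 0.27 and mt-Nd5 by 0.86 ± 0.27 the most (edgeR adjusted p 0.0139 and 0.0288), and none fell.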

How the data were processed

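Raw read counts per Ensembl gene were used as deposited. According to the submitters' processing notes, the tools were Trim Galore, FastQC, STAR and DESeq2 1.24.0, on GRCm38. Per the labels' protocols, poly(A) RNA went into directional libraries. No source used here gives the counting tool, its handling of strand and of shared reads, or the release of its annotation. Symbols, coding exons and lengths (the median over transcripts of the best APPRIS rank) came from GENCODE vM21. Of 55573 rows, 93 had no symbol there and held 0.00021% of the counts.

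Genes were filtered with filterByExpr at a minimum count of 10, which left 11718 with 99.88% of the counts, scaled by TMM and fitted in 1 model of 30 libraries and 6 group means with edgeR 4.0.16 (limma 3.58.1, R 4.3.3). Benjamini-Hochberg adjustment ran over every gene tested. Log2 CPM used a prior count of 1. The length trend was a lowess curve per library (span 0.3) over genes that are not members. The fit was tested on simulated data. Within groups, any 2 libraries differed by more than counting error (chi-square of at least 2.33 per gene, 60 pairs).

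The members and lists were chosen with earlier results of these data known. Named genes were 22 members known for a role, the 5 highest and 3 lowest per length, up to 4 called rises and 4 called falls per comparison, the 3 most and 3 least variable, and the largest called changes of each list. Other names were chosen after their values were seen. Alternatives were other scaling, no low-count filter, DESeq2 1.42.0, length trend removal, the compared groups alone, a replicate block, a term for library numbers above 70, and leaving out libraries. Removing the length trend and WT libraries 72 and 75 with IL12 together was added after the data were seen. Results for a few genes are not reported here, and 1 of them is left out of the heat map.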

Additional observations from a re-analysis of the deposited data

Results flagged for a closer look

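Among 96 sets of 5 libraries examined, 3 held a library that lay far from the other 4, and chance alone gives about 1 in 20. Rpl35 stood at 382 CPM in WT library 75 without cytokine, and the other 4 lay between 473 and 505 CPM. Rplp0 stood at 4417 CPM in the same library, and the other 4 lay between 4880 and 5028 CPM. Rpl36 stood at 418 CPM in WT library 75 with TGFB1, against 464 to 477 CPM in the other 4. In each case the gap to the nearest library took up 0.739 to 0.767 of the range of the group.

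The rows of ribosomal protein pseudogenes, which no comparison used, held some counts. Of 301 such rows 225 had a count in at least 1 library, and their summed share was 0.0328% to 0.057% of the library total. How reads that match both a gene and its processed copy were counted is unknown here.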

How the results depend on the processing

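Counts of called members are given in either direction. The share of all genes called in the same fit is not given beside them and can differ between fits. These counts, and those of alternative fits above without such a share, therefore do not show a change particular to the members. Between KO and WT without cytokine, 3 were called with the compared groups alone, and 0 to 1 when 1 library was left out. Between KO and WT with TGFB1, 11 were called with the length trend removed, and 0 to 6 with 1 library left out. Between KO and WT with IL12, 37 were called without the low-count filter, 35 with the length trend removed, 0 with the compared groups alone, 0 without WT libraries 72 and 75, and 0 without these libraries and the length trend, an alternative chosen after seeing the data. Leaving out 1 library gave 24 to 71. For TGFB1 in WT, 40 were called with the length trend removed, and 14 to 32 with 1 library left out. For TGFB1 in KO, 2 were called without the filter, 25 with the length trend removed and 21 with the compared groups alone, and 3 to 8 with 1 library left out. For IL12 in WT, 1 was called without the filter, 11 with the length trend removed, 1 with the compared groups alone, 19 without WT 72 and 75, and 16 without these and the length trend. Leaving out 1 library gave 1 to 4. For IL12 in KO it gave 37 to 56. The cause was not tested. The interactions stayed at 0. With pseudogenes and 4 further genes the share was 10.3% in KO without cytokine and 11.8% in WT with TGFB1, and leaving out 1 library gave 9.83% to 9.93% and 11.2% to 11.5%. Of 188 alternative medians of the members 180 moved by less than 0.11 and 8 moved by more. Of 60 calls of named members 22 were kept under every alternative run.

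With the replicate block, edgeR or limma called 0 members between KO and WT without cytokine, 3 with TGFB1 and 55 with IL12, 25 and 9 for TGFB1 in WT and KO, 3 and 57 for IL12 in WT and KO, and 0 for both interactions. Libraries with the same number had correlated deviations from −0.034 to 0.43 (30 pairs, median 0.222). The numbers were not taken as pairs because the labels do not say what a number marks. Of the 30 pairs, 26 were above 0.1. The male library of a genotype carried the same number in every medium. The main fit does not account for such sharing. That 13 of 30 libraries correlated best with a library of their own number is a hint from the data that numbers may share a source.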

Other observations

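Rpl39l, the paralog of Rpl39 that is best known from the testis, had 461 counts over the 30 libraries, and Rpl3l, the paralog of Rpl3 known from muscle, had 8. Rpl10l had none, which allows 3 counts over all libraries.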
